A study of Mus musculus with 4 samples.

Results

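Scd1 and 9 other genes of fatty acid synthesis and desaturation were followed in peripheral blood mononuclear cells (PBMCs) of mice. The 10 genes were taken as a list of names: the desaturases Scd1, Scd2, Fads1 and Fads2, the synthesis enzymes Acly, Acaca and Fasn, the elongase Elovl5, and the transcription factors Srebf1 and Srebf2. Of these 10 genes, 9 had a row among the 15093 genes of the count table, and Fads2 had none. The study asked whether non-thermal plasma (NTP), a partly ionised gas applied to the skin, leaves a trace in the blood. All animals were female wild-type C57BL/6 mice with an age of 3.2 ± 0.3 months. In the 2 treated mice, 1 ear was irradiated with NTP for 10 min under anaesthesia, while the 2 untreated mice were anaesthetised only. Blood was drawn after 120 min, counted from the irradiation in treated mice and from the start of anaesthesia in untreated mice, so the times under anaesthesia need not be the same. The 4 mice are called treated replicate 1, treated replicate 2, untreated replicate 1 and untreated replicate 2.

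In animal cells, ATP citrate lyase (Acly) makes cytosolic acetyl-CoA from citrate, acetyl-CoA carboxylase (Acaca) turns it into malonyl-CoA, and fatty acid synthase (Fasn) joins these units into a saturated chain. Stearoyl-CoA desaturases (Scd1, Scd2) place the first double bond in saturated chains, Fads1 and Fads2 place further double bonds in polyunsaturated chains, and Elovl5 lengthens the latter. The proteins of Srebf1 and Srebf2 are membrane-bound transcription factors that are cut and sent to the nucleus when sterols are scarce, with Srebf1 best known for fatty acid genes and Srebf2 for cholesterol genes. In lymphocytes, lipid synthesis is known to be switched on when resting cells start to divide.

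In the mouse genome (GRCm38, GENCODE annotation), Scd1 lies at chr19:44394455-44407879 on the minus strand, next to Scd2 at chr19:44293674-44306864 on the plus strand, with 87.6 kb between them. Their transcripts share 145 of the 4783 stretches of 50 bases in Scd1, but 0 of those within the last 1000 bases, which is where a 3' library reads. Fads1 (chr19:10182888-10196877, plus strand) and Fads2 (chr19:10062765-10101746, minus strand) also lie on this chromosome. Fasn (chr11:120805846-120824547, minus strand), Acaca (chr11:84129672-84401651, plus strand), Acly (chr11:100476353-100528000, minus strand) and Srebf1 (chr11:60199089-60222581, minus strand) lie on another. Elovl5 lies at chr9:77917364-77984519 and Srebf2 at chr15:82147181-82205379, both on the plus strand. Srebf1 overlaps Rai1 on the opposite strand, so its counts are uncertain where strand was not used in counting.

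The study followed miR-223-3p in treated skin, and its mature sequence (RefSeq, GRCm38) is shown because a microRNA pairs with 3' UTRs through its seed. It is encoded at chrX:96242884-96242905 on the plus strand, and capitals mark seed bases 2 to 8.
miR-223-3p: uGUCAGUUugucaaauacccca
The seed match AACTGAC was searched on the transcript strand in the 3' UTR of the transcript with the longest coding sequence of each gene. Of the 10 genes, only Fasn held it, at base 1191 of a 3' UTR of 2008 bases (chr11:120806646-120806674, minus strand). Capitals mark the match.
Fasn: gagtcacacagAACTGACcatgtgtgtaa
A match was present in 8.19% of the 12327 genes of the table with an annotated 3' UTR, and in 11.4% of those with a 3' UTR about as long as that of Fasn. The 3' UTR of Scd1 (3464 bases) held none, against 19.8% of genes of similar length with at least 1. A match is a description of the letters and not a measured target site.

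The table held 5794 cells with 23692981 unique molecular identifiers (UMIs, each a captured RNA molecule), with 4653719 to 7093148 UMIs and 993 to 1705 cells per mouse. The authors labelled 3130 B cells, 474 plasmablasts, 1517 CD4+ and 600 CD8+ T cells and 73 NK cells in 12 clusters, and 8 cells carried 1 of 4 barcodes found in more than 1 library. The UMIs of a mouse's cells of 1 type were added up and are given as counts per 1000000 of that sum (CPM), which are not divided by gene length because a molecule is read near its 3' end. NK cells were not tested because 3 of the 4 mice had fewer than 20 of them. The B, CD4+ and CD8+ T cell labels matched their markers. The cells labelled NK cells went against theirs, since T cell markers summed to 1825 to 2226 CPM in them, Ncr1 and Klrb1c had 1 UMI each and Klra8 had 0, although Nkg7 was high at 505 to 679 CPM. The cells labelled plasmablasts did not stand apart on plasmablast markers: Jchain was at 0, and the 6 markers summed to 247 to 312 CPM against 259 to 289 CPM in B cells. The B cell marker Cd79b stood at 2077 to 2855 CPM in them, against 1087 to 1261 CPM in B cells. Each library is 1 mouse, so the tests measure the spread between these 4 animals, and in summed cells, fewer expressing cells and less RNA per cell cannot be told apart.

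Scd1 was the most abundant of the 9 genes in B cells and in cells labelled plasmablasts, and was close to absent in T cells. In B cells, Scd1 stood at 244 and 234 CPM in treated replicates 1 and 2, and at 249 and 285 CPM in untreated replicates 1 and 2 (253 ± 21.9, SD, n = 4). In plasmablasts it stood at 270 and 271 CPM in the treated mice and at 179 and 288 CPM in the untreated mice. Scd1 made up 49.0% of all UMIs of the 9 genes in B cells and 50.2% in plasmablasts, but 0.5% in CD4+ and in CD8+ T cells.

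In CD4+ T cells, 8 UMIs of Scd1 were counted in all, 2 in every mouse (0.947 to 1.30 CPM). In CD8+ T cells 4 UMIs were counted, all in treated replicate 2, and in cells labelled NK cells 1. Pooled over mice, the B cell level was 218-fold the CD4+ T cell level, with a 95% interval of 110.5 to 505.4, and 212-fold the CD8+ T cell level (82.8 to 779). These intervals, as all intervals on counts and shares here, cover counting error only. The mice did not overlap between B and T cells for Scd1 in any of these comparisons.

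**Figure D1:**
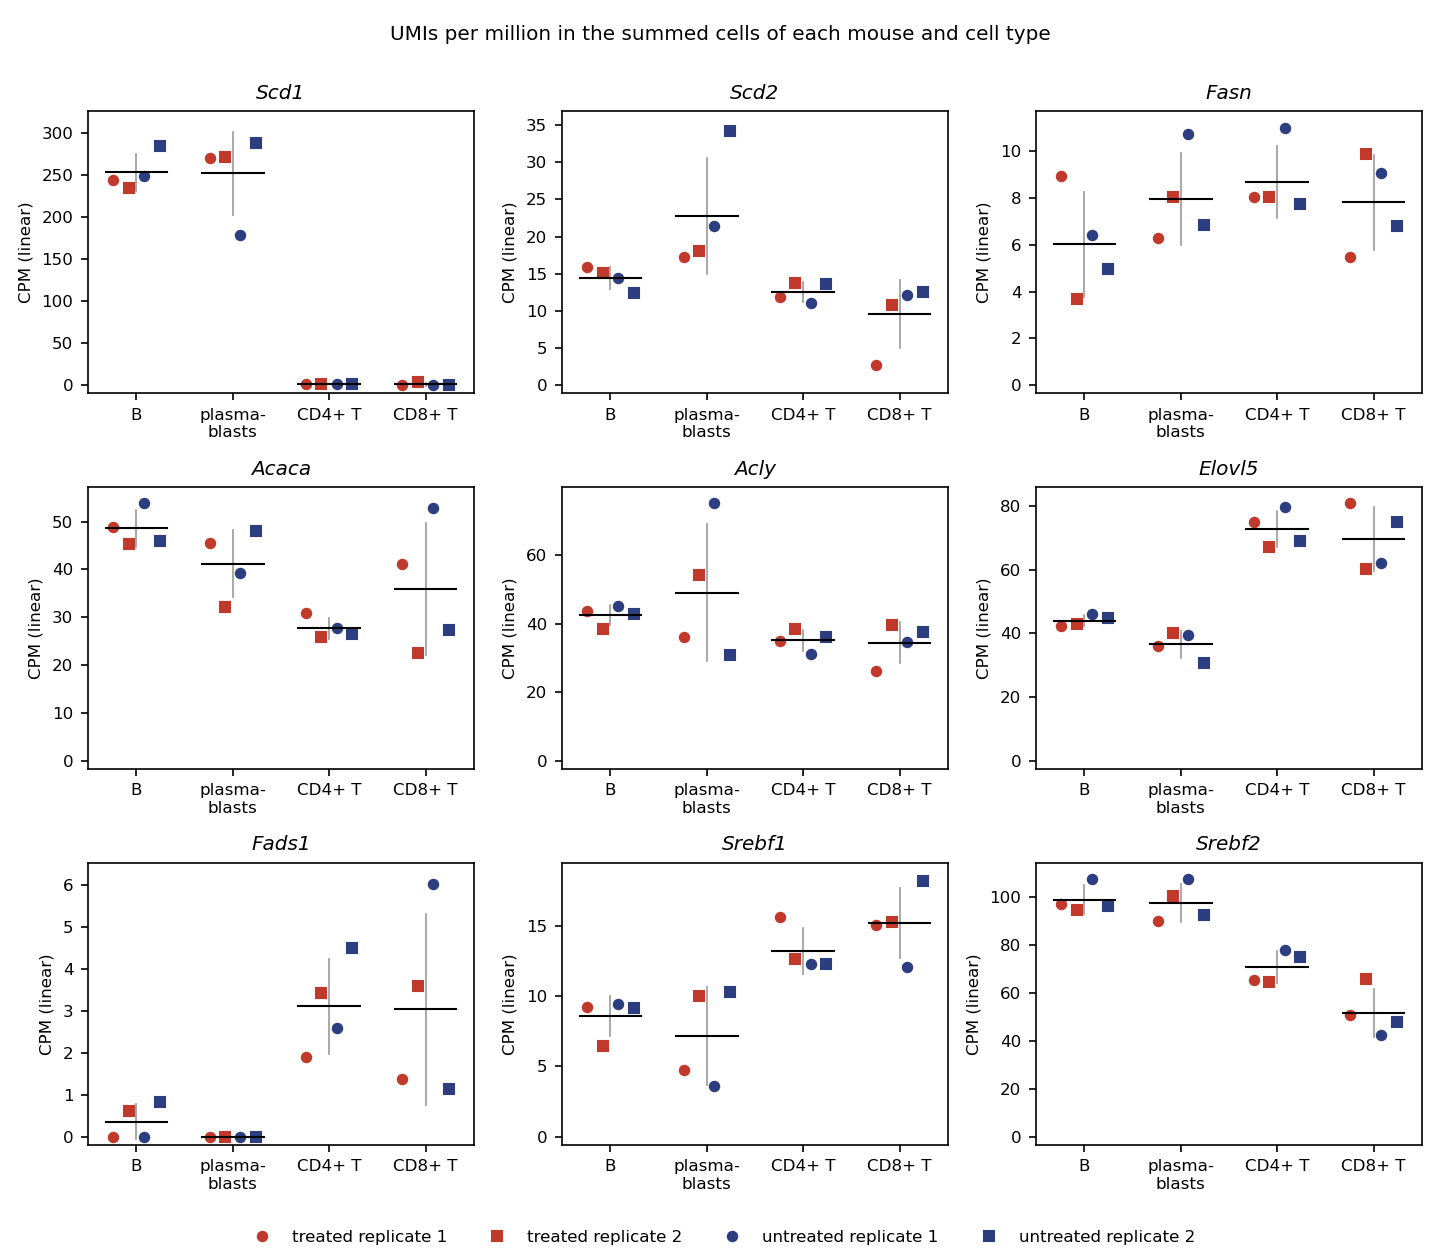
Counts per 1000000 UMIs (CPM, linear axes) of the 9 genes in the summed B cells, plasmablasts, and CD4+ and CD8+ T cells of each mouse, with the mean (black bar) and 1 SD (grey line) over 4 mice. Scd1 sits between 179 and 288 CPM in B cells and plasmablasts and below 4 CPM in T cells, while Elovl5 and Srebf1 are higher in T cells than in B cells.

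A UMI of Scd1 was found in 52.49% of B cells (95% exact interval 50.72 to 54.25) and in 51.05% of plasmablasts, with up to 8 UMIs in a B cell. The share was 0.5274% in CD4+ T cells (0.2279 to 1.036), although these were deeper, with a median of 4429 UMIs per cell against 3364 in B cells. After each cell was thinned to 2000 UMIs, which left out 276 shallower cells, the shares were 36.99% of 2906 B cells, 37.19% of plasmablasts and 0.20% of CD4+ T cells.

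The trace of Scd1 in CD4+ T cells was about as small as that of the B cell markers Cd79a, Cd79b and Ms4a1. Its pooled level in CD4+ T cells was 0.459% of that in B cells, and 0.471% in CD8+ T cells. In the same CD4+ T cells, the B cell receptor chains Cd79a and Cd79b stood at 0.268% and 0.491% of their B cell levels, the surface protein Ms4a1 at 0.413%, and the heavy chain Ighm at 6.25%. Scd1 lay between Cd79a and Cd79b there. In CD8+ T cells, Cd79a, Cd79b and Ms4a1 stood at 0.166%, 0.369% and 0.170%, below Scd1, and Ighm at 5.58%, above it. The Scd1 value in CD8+ T cells came from treated replicate 2 alone. Whether the few UMIs of Scd1 in T cells came from background or from expression was not tested.

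**Figure D2:**
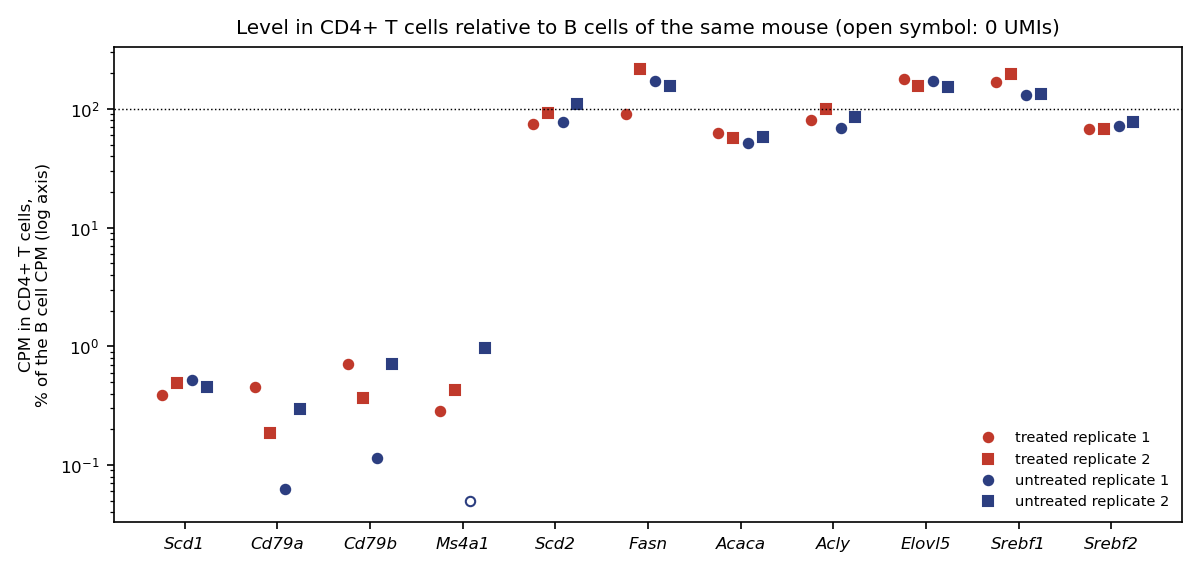
Level in CD4+ T cells as a percent of the level in B cells of the same mouse (log axis, 1 symbol per mouse, open symbols at the lower edge for 0 UMIs, dotted line at equal levels). Fads1, with 4 UMIs in B cells, is not drawn. Scd1 lies between 0.388% and 0.520%, among the B cell markers Cd79a, Cd79b and Ms4a1, whereas the other 7 genes drawn lie between 51.6% and 218%.

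Scd1 was present throughout the B cell clusters of the deposited annotation rather than in 1 of them. Means over mice were 248 CPM in cluster 0, 227 CPM in cluster 1 and 281 CPM in cluster 2, and 257 and 241 CPM in plasmablast clusters 6 and 9. The small cluster 10 (80 cells, 66 UMIs of Scd1) had the lowest mean among B cells, 142 CPM, with mice between 75.6 and 226 CPM. The T cell clusters had means of 0 to 1.80 CPM. The clusters were built from the same counts, so these levels are a description without a test.

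**Figure D3:**
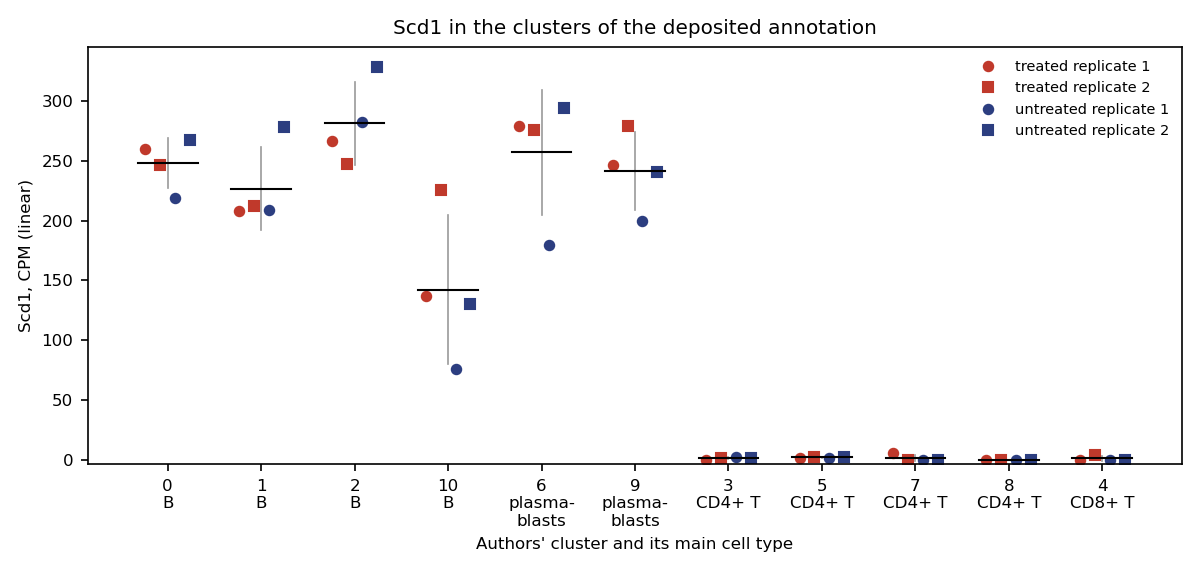
Scd1 in CPM (linear axis) in each cluster of the authors' annotation, per mouse, with the mean (black bar) and 1 SD (grey line), ordered by main cell type. The NK cell cluster 11 is not drawn. B cell and plasmablast clusters lie between 75.6 and 329 CPM in all mice, and the T cell clusters lie near 0.

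The other desaturases were scarce. Scd2, the neighbour and paralogue of Scd1, had 12.4 to 15.9 CPM in B cells and 11.01 to 13.8 CPM in CD4+ T cells, so that the mice of these types overlapped, unlike for Scd1. Its levels were 17.3, 18.1, 21.4 and 34.2 CPM in plasmablasts and 2.74, 10.8, 12.1 and 12.5 CPM in CD8+ T cells (treated replicates 1 and 2, then untreated replicates 1 and 2). In both of these types the treated mice lay below the untreated mice, on 36 and 33 UMIs in all. These counts were too low for Scd2 to enter the treatment tests there. Of the genes that did, 36.8% in plasmablasts and 38.7% in CD8+ T cells separated the groups in either direction. Fads1, the delta-5 desaturase, had 21 UMIs in CD4+ T cells (1.89 to 4.51 CPM), 10 in CD8+ T cells and 4 in B cells. No plasmablast had a UMI of Fads1 (0 of 474 cells, which allows a share of cells with a UMI of up to 0.633%, counting 3 cells as the floor).

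Of the synthesis enzymes, Acaca differed between B cells and CD4+ T cells. In B cells it stood at 48.9 and 45.4 CPM in the treated mice and at 54.0 and 46.0 CPM in the untreated mice, and in CD4+ T cells at 30.8, 25.8, 27.9 and 26.4 CPM, below every B cell value. Acly, the citrate lyase, stood at 38.3 to 45.1 CPM in B cells and 31.1 to 38.4 CPM in CD4+ T cells, so the mice of the 2 cell types overlapped slightly. Fasn, which carries the seed match shown above, was low in every type, with 3.68 to 8.97 CPM in B cells and 7.74 to 11.01 CPM in CD4+ T cells, and a UMI in 2.05% and 3.82% of the cells.

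Elovl5 was higher in T cells than in B cells, opposite to Scd1. It stood at 42.2 and 43.0 CPM in treated and 46.0 and 44.8 CPM in untreated B cells, and at 74.8, 67.1, 79.7 and 69.0 CPM in CD4+ T cells, with no overlap between the types. CD8+ T cells had 60.3 to 80.9 CPM, which spans the CD4+ T cell values, and plasmablasts had 30.8 to 40.1 CPM. A UMI of Elovl5 was found in 12.6% of B cells and 25.5% of CD4+ T cells, or in 7.88% and 12.4% after thinning.

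The 2 transcription factor genes differed in which lymphocytes held more of them. Srebf2 was the second most abundant of the 9 genes in B cells, at 96.9 and 94.5 CPM in treated and 107 and 96.2 CPM in untreated mice, against 64.2 to 77.7 CPM in CD4+ T cells and 42.3 to 65.7 CPM in CD8+ T cells. Srebf1 stood at 9.26 and 6.44 CPM in treated and 9.41 and 9.12 CPM in untreated B cells, below all CD4+ T cell values (12.3 to 15.6 CPM).

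Over the 3 large B cell clusters, Acaca and Elovl5 differed more, in proportion to their level, than Scd1 and Srebf2. Acaca had means of 24.3 CPM in cluster 1, 42.5 CPM in cluster 0 and 70.2 CPM in cluster 2, and Elovl5 had 22.7, 43.1 and 57.8 CPM in the same clusters. Srebf2 and Scd1 had the same order over these clusters with a range narrower in proportion, from 81.0 to 114 CPM and from 227 to 281 CPM. The median depth of a cell ran the same way, from 2683 UMIs in cluster 1 to 4244 UMIs in cluster 2, and its part in this was not tested. The small cluster 10 had the deepest cells of the B cell clusters (median 4951 UMIs). Its means of 52.0 CPM for Acaca, 35.6 CPM for Elovl5 and 98.6 CPM for Srebf2 lay below those of cluster 2. Scd1 and Srebf1 had their lowest means there, Srebf1 on 3 UMIs and at 6.54 CPM against 6.92 CPM in cluster 1. Acly and Scd2 had their highest means of the B cell clusters in cluster 10, 77.5 CPM and, on 12 UMIs, 24.8 CPM. So did Fasn and Fads1, on 3 UMIs and 1 UMI. In CD4+ T cells, Elovl5 ranged from 58.4 CPM in cluster 3 to 116 CPM in cluster 8.

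B cells were compared with CD4+ T cells of the same mouse, where 26.8% of the 9475 genes tested were higher and 26.3% lower in B cells (edgeR's quasi-likelihood test, Benjamini-Hochberg adjusted p below 0.05). Of the 8 members tested, 3 were higher and 2 lower in B cells, at a median log2 difference of 0.16 against -0.01 over all genes. Because the cell types came from clustering the same counts, the p-values only set a difference against the spread between mice. Scd1 was higher by 7.63 on the log2 scale (SE 0.173, edgeR adjusted p = 4.09e-41). Acaca was 1.65-fold higher (log2 0.72, SE 0.131, edgeR adjusted p = 4.16e-06) and Srebf2 1.34-fold higher (log2 0.42, SE 0.0892, edgeR adjusted p = 6.64e-05). Elovl5 was lower, with a log2 difference of -0.80 (SE 0.104, edgeR adjusted p = 2.00e-09), and so was Srebf1, with -0.72 (SE 0.237, edgeR adjusted p = 0.00811). The call for Srebf1 was lost without either treated mouse and in DESeq2 (adjusted p = 0.0641, 0.0507 and 0.0886), at log2 differences of -0.63 to -0.72. Scd2 (log2 0.14, 95% interval -0.29 to 0.56), Acly (0.19, -0.07 to 0.45) and Fasn (-0.58, -1.17 to 0.01) did not pass, although Fasn passed without treated replicate 1 (-0.91, edgeR adjusted p = 0.0404).

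No member was shown to differ between plasmablasts and B cells. None of the 7 members tested passed edgeR's adjusted threshold, 0 had an unadjusted p under 0.05 and 0 passed in DESeq2, while 8.56% of the 8357 genes tested were higher and 8.2% lower in plasmablasts and 27.9% had an unadjusted p under 0.05. Scd1 differed by -0.07 on the log2 scale (95% interval -0.27 to 0.12, edgeR adjusted p = 0.688), and Scd2 by 0.45 (-0.19 to 1.09, edgeR adjusted p = 0.382). The direction for Scd1 turned to 0.03 without untreated replicate 1.

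Nor was a member called between CD8+ and CD4+ T cells. Of the 7 members tested, 0 passed in edgeR and 0 in DESeq2, against 8.11% of the 8109 genes tested higher and 6.25% lower in CD8+ T cells, and 2 had an unadjusted p under 0.05, against 23.7% of all genes. These were Acaca, with a log2 difference of 0.45 (SE 0.195, edgeR adjusted p = 0.122), and Srebf2, with -0.29 (SE 0.141, edgeR adjusted p = 0.188). Srebf2 passed without treated replicate 2 (-0.50, edgeR adjusted p = 0.0362) and when libraries were scaled by their total count (-0.42, edgeR adjusted p = 0.0247).

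**Figure D4:**
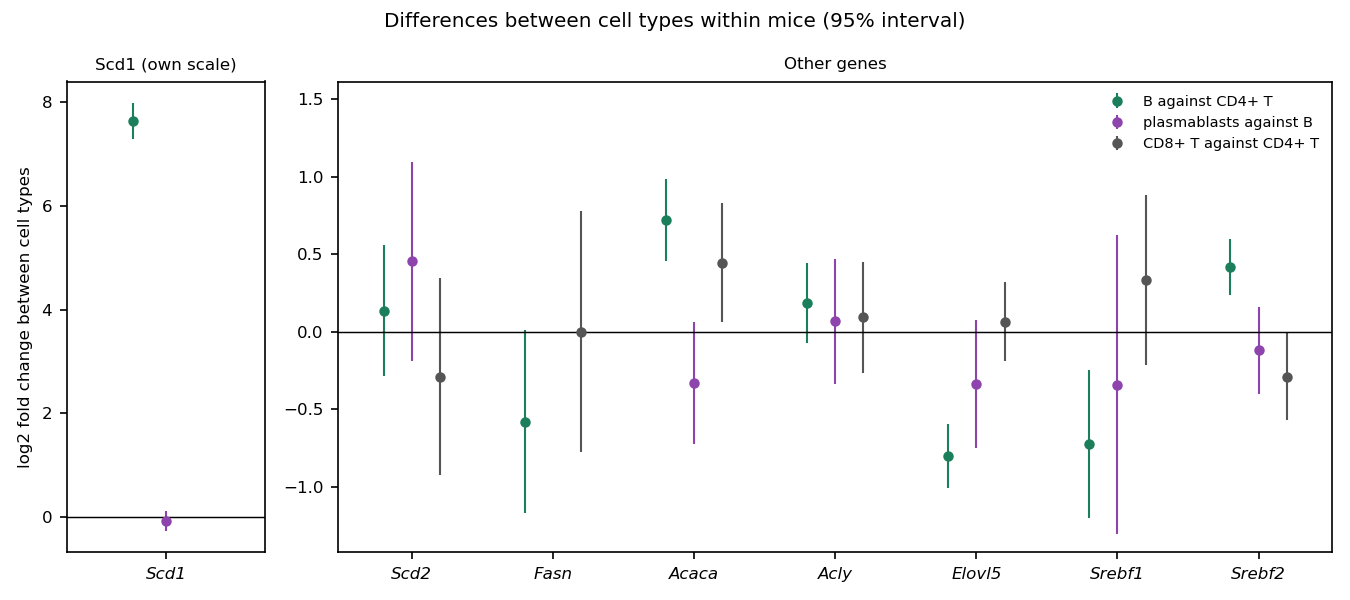
Log2 fold change (point) and 95% interval (line) of the genes tested in 3 comparisons of cell types within mice, with Scd1 on an axis of its own. For B cells against CD4+ T cells, the intervals of Scd1, Acaca, Srebf2, Elovl5 and Srebf1 exclude 0, those of Acaca and Srebf2 do so for CD8+ against CD4+ T cells, and every interval for plasmablasts against B cells includes 0.

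Treatment was then compared within each cell type, treated against untreated mice. In B cells, 0 of the 8 members tested passed in edgeR, with 0 at an unadjusted p under 0.05 and 0 in DESeq2. Over all 9903 genes of this comparison, 0% passed and 4.65% had an unadjusted p under 0.05. The filter on low counts left out Fads1 in every cell type, Scd1 in both T cell types, Scd2 and Fasn in CD8+ T cells and plasmablasts, and Srebf1 in plasmablasts. With 2 mice against 2, an exact permutation test of a single gene cannot go below p = 0.33.

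Both treated mice had less Scd1 in B cells (244 and 234 CPM) than both untreated mice (249 and 285 CPM), but the lower untreated and the higher treated mouse nearly met. The log2 fold change was -0.12 (SE 0.106, 95% interval -0.35 to 0.10, edgeR adjusted p = 0.934), a ratio of 0.917 with an interval of 0.785 to 1.07. The log2 fold change was -0.020 without untreated replicate 2 and -0.22 without untreated replicate 1. Both treated mice had more Scd2 (15.9 and 15.03 against 14.4 and 12.4 CPM, log2 0.25, SE 0.253, edgeR adjusted p = 0.939) and less Elovl5 (log2 -0.06, SE 0.151, edgeR adjusted p = 0.985). These 3 of 8 genes without overlap between the groups compare with 34.6% of all genes tested in B cells. The other 5 members overlapped between groups, with log2 fold changes of -0.20 for Srebf1, 0.20 for Fasn, -0.06 for Acly, -0.05 for Srebf2 and -0.04 for Acaca.

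In plasmablasts, Scd1 gave a log2 fold change of 0.25 (SE 0.193, 95% interval -0.15 to 0.64, edgeR adjusted p = 0.839), opposite in sign to B cells. This direction rested on untreated replicate 1, which had 179 CPM against 270 to 288 CPM in the other 3 mice. Without this mouse, the log2 fold change was -0.03. The red blood cell markers summed to 3713 CPM in the plasmablasts of this mouse, against 13.7 to 113 CPM in the other mice, and their part in the low Scd1 value was not tested. Of the 5 members tested in plasmablasts, 0 passed in edgeR, 0 had an unadjusted p under 0.05, 0 passed in DESeq2 and 0 separated the groups, against 0.0186%, 6.79% and 36.8% of the 5372 genes tested for the edgeR call, the unadjusted p and the separation.

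In CD4+ T cells, 7 members were tested and 0 passed in edgeR or DESeq2, with 0 at an unadjusted p under 0.05, against 0% and 4.79% of the 8680 genes tested. Srebf1 was above in both treated mice (15.6 and 12.6 against 12.3 and 12.3 CPM), with a log2 fold change of 0.26 (SE 0.302, edgeR adjusted p = 0.926), or 0.11 without treated replicate 1. Srebf2 was below in both (65.4 and 64.2 against 77.7 and 74.8 CPM), with -0.18 (SE 0.136, edgeR adjusted p = 0.920). These are 2 of 7 genes, where 35.3% of all genes separated the groups. The other 5 gave log2 fold changes from -0.17 for Fasn to 0.17 for Acly.

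In CD8+ T cells, the closest of the members to a difference was Srebf2, with 50.7 and 65.7 CPM in treated and 42.3 and 47.7 CPM in untreated mice. Its groups did not overlap, and its log2 fold change was 0.48 (SE 0.249, 95% interval -0.02 to 0.99, edgeR adjusted p = 0.605), or 0.23 without treated replicate 2. It was the only 1 of the 5 members tested that separated the groups, against 38.7% of the 6798 genes tested. None of the 5 passed in edgeR or DESeq2 and 0 had an unadjusted p under 0.05, against 0.0294% and 8.44% of all genes for the edgeR call and the unadjusted p. Elovl5, Srebf1, Acly and Acaca gave log2 fold changes of 0.09, 0.07, -0.00182 and -0.26.

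Over the members tested, the median log2 fold change was -0.05 in B cells, -0.04 in plasmablasts, 0.10 in CD4+ and 0.07 in CD8+ T cells, against 0.00, 0.00, 0.01 and 0.01 over all genes. The 4 comparisons come from the same 4 mice and are not independent of each other.

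**Figure D5:**
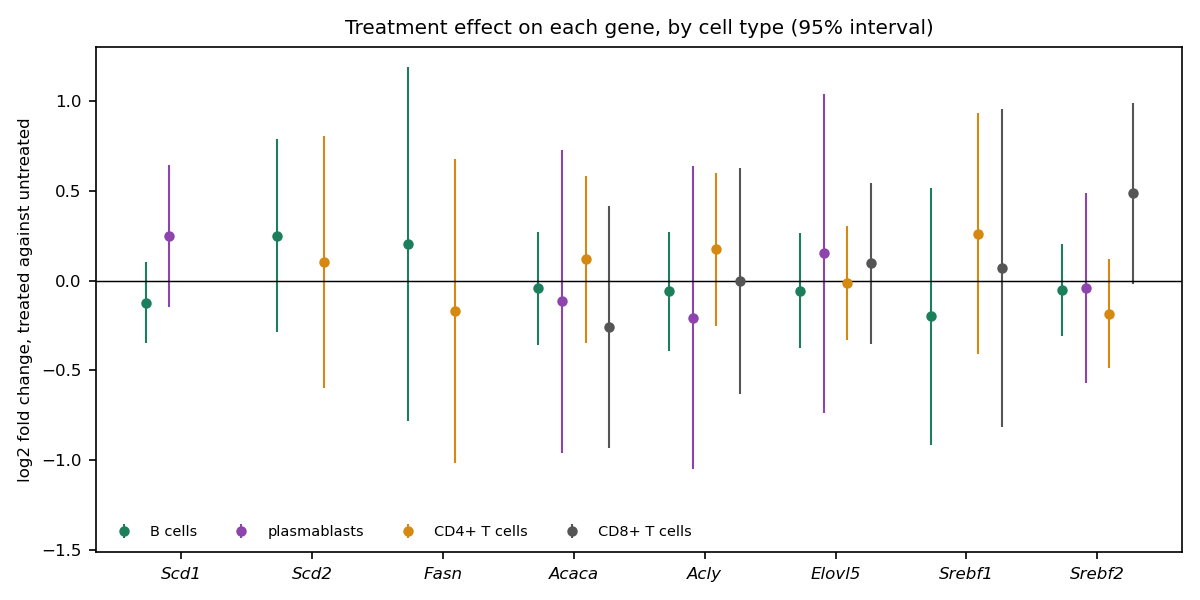
Log2 fold change (point) with 95% interval (line) for treated against untreated mice, for the genes that entered the test in each of 4 cell types (2 mice per group). Every interval includes 0, and the narrowest are those of Scd1 and Srebf2 in B cells, from -0.35 to 0.10 and from -0.31 to 0.20.

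Whether a member responded differently in 2 cell types was tested by an interaction. Between B cells and CD4+ T cells, 0 of 8 members passed in edgeR and 0 had an unadjusted p under 0.05, where 0.00986% and 3.89% of the 10143 genes tested did. The values ran from -0.45 for Srebf1 to 0.35 for Fasn, all with an edgeR adjusted p of 1. Scd1 entered this test with 2 UMIs in the CD4+ T cells of every mouse, too few to show a difference. Srebf2 lay above the untreated mice in CD8+ T cells and below them in CD4+ T cells, and the difference of the 2 effects was 0.65 (SE 0.288, unadjusted p = 0.0231, edgeR adjusted p = 0.952, with 0.0114% of 8735 genes passing). Scd2 lay above in B cells and below in plasmablasts and CD8+ T cells. Its differences were -0.87 (SE 0.641, edgeR adjusted p = 1, with 0.033% of 9098 genes passing) and -0.90 (SE 0.629, edgeR adjusted p = 1, with 0.0105% of 9557 genes passing). These last 3 tests were chosen after the values had been seen.

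Further lists placed the 10 genes in lipid metabolism. None of their genes passed edgeR's adjusted threshold for treatment in any of the 4 cell types. In the list of other synthesis, elongation and desaturation genes, which held 29 names, 20 had a row. Of its 13 genes tested, B cells had 1 higher and 3 lower than CD4+ T cells, at a median log2 difference of -0.26. Over all genes of this comparison, 26.8% were higher and 26.3% lower. The higher one was Mid1ip1, a partner of acetyl-CoA carboxylase, by 1.57 (SE 0.293, edgeR adjusted p = 7.20e-06). The lower ones were Acss2, which makes acetyl-CoA from acetate, with -1.60 (SE 0.143, edgeR adjusted p = 1.53e-14), the elongase Elovl6, with -1.58, and the dehydratase Hacd3, with -0.91. Of the genes named, Elovl5, Elovl6, Acss2 and Hacd3 were thus lower in B cells, and Scd1, Acaca and Mid1ip1 higher. Such calls in both directions do not describe elongases as a class.

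The same shares of all genes, 26.8% higher and 26.3% lower in B cells, apply to the next lists. Of 11 genes tested that process or regulate the SREBP proteins, 4 were higher and 2 lower in B cells (median 0.33). Fbxw7, part of a ubiquitin ligase that marks nuclear SREBP for breakdown, was higher by 0.77 (SE 0.0938, edgeR adjusted p = 2.74e-10), and Mbtps1, the first of the proteases that free SREBP from the membrane, lower, with -0.46 (SE 0.107, edgeR adjusted p = 2.48e-04). Of 16 cholesterol genes, 1 was higher, Pmvk by 1.91, and 4 were lower, among them Fdps with -1.07 and Msmo1 with -0.84 (median -0.22). Of 18 fatty acid oxidation genes, 6 were higher and 3 lower (median 0.10). Cpt1a, which moves fatty acids toward the mitochondrion, was higher by 1.401 (SE 0.131, edgeR adjusted p = 6.58e-14).

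Of 12 genes of acyl-CoA activation, storage and transport, 6 were higher and 2 lower in B cells (median 0.36), against 26.8% and 26.3% of all genes. The fatty acid transporter Cd36 had 91 UMIs in B cells and 0 in CD4+ T cells, at least 18.9-fold higher when 3 UMIs over the CD4+ T cells are taken as the floor. The same list held the only 2 genes of these lists that were higher in plasmablasts than in B cells. Cd36 stood at 37.7 to 64.3 CPM in plasmablasts and 5.22 to 12.9 CPM in B cells (log2 2.35, SE 0.300, edgeR adjusted p = 1.17e-09), and Gpam, the first enzyme of triglyceride synthesis, at 25.0 to 47.2 and 10.1 to 11.9 CPM (log2 1.64, SE 0.294, edgeR adjusted p = 8.00e-06). Ggps1 was lower in plasmablasts (log2 -0.54, edgeR adjusted p = 0.00785). Cd36, Gpam and Ggps1 were 3 of 55 list genes tested, where 8.56% of all genes were higher and 8.2% lower in plasmablasts. Between CD8+ and CD4+ T cells, Elovl6 (0.67, edgeR adjusted p = 0.0376) and Hmgcs1 (1.01, edgeR adjusted p = 0.00833) were higher in CD8+ T cells. They were 2 of 52 list genes tested, where 8.11% of all genes were higher and 6.25% lower in CD8+ T cells.

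For treatment, the lists gave single genes with an unadjusted p under 0.05. In B cells these were Fdps (8.97 and 7.36 against 3.96 and 3.32 CPM, log2 1.20, edgeR unadjusted p = 0.0119, adjusted p = 0.934), Cpt1a (log2 -0.38, edgeR adjusted p = 0.934) and Elovl1 (log2 0.90, edgeR adjusted p = 0.934), 3 of 72 list genes tested. The share of all genes with such a p was 4.65% in that comparison. Fdps was also above in both treated mice in CD4+ T cells (14.2 and 17.2 against 6.48 and 9.67 CPM, log2 0.995, edgeR adjusted p = 0.903). So was Oxsm, on 32 UMIs (log2 1.29, edgeR adjusted p = 0.903). In B cells, Oxsm lay the other way, at 2.60 and 2.76 CPM in treated against 4.46 and 4.56 CPM in untreated mice. The groups separated in 35.3% of all genes tested in CD4+ T cells and in 34.6% in B cells. In CD4+ T cells, 2 of 59 list genes tested had an unadjusted p under 0.05, against 4.79% of all genes. Stard4 and Hadh had an unadjusted p under 0.05 in CD8+ T cells, 2 of 40 list genes tested against 8.44% of all genes. Hacd3, Mbtps2 and Hadh did so in plasmablasts, 3 of 29 against 6.79%. None of the genes named for CD8+ T cells or plasmablasts passed in edgeR after adjustment (adjusted p from 0.579 to 0.710).

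The genes whose level followed Scd1 most closely over the 16 sums of 4 mice and 4 cell types, by Pearson correlation of log2 CPM over 9228 genes, were Kmo (r = 0.997), Cyp4f18, Lrrk2, Gm30211 and Mzb1 (r of 0.994 or more). The sums share mice and libraries, so this is a description. Because Scd1 was near 0 in all T cell sums, r mainly repeats the difference between B and T cells. It does not show whether a gene follows Scd1 within a cell type. All 5 were high in B cells and plasmablasts and near 0 in T cells, such as Kmo with 62.8, 70.9 and 0.576 CPM and Lrrk2 with 362, 295 and 1.01 CPM in B cells, plasmablasts and CD4+ T cells. Of the other members, Srebf2 was the closest (r = 0.85, rank 926), followed by Scd2 (0.54) and Acaca (0.41), whereas Srebf1 (-0.78) and Elovl5 (-0.94) ran the opposite way.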

How the data were processed

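PBMCs of 2 treated and 2 untreated mice were profiled by 3' single-cell RNA-seq. The authors aligned reads to mm10 (per the labels, Cell Ranger 7.1.0 and Seurat 4.3.0), removed ambient RNA with SoupX and doublets with DoubletFinder, and deposited whole-number UMI counts per cell with cell types and clusters. The sources used here do not say whether the deposited counts include the SoupX step or intronic reads. The deposited percent of mitochondrial counts was not used. The counts of each mouse's cells of a type were added up and tested with edgeR 4.0.16 (R 4.3.3): TMM scaling, edgeR's filter on low counts, quasi-likelihood test, Benjamini-Hochberg over all genes tested, threshold 0.05. Cell types were compared with the mouse as block, since both sums came from the same animal. Alternatives were RLE size factors, no filter, DESeq2 1.42.0, 1 model over all 4 cell types, no block and each mouse left out. Scaling by the total count and 3 interactions were added after the values were seen. No doublet caller was run again. All 10 genes are named. Of the other lists, up to 4 genes per list and comparison with the smallest p are named, and the 5 genes most correlated with Scd1. Genes and lists were chosen with earlier results of these data known. Values of 1 marker gene are not reported here.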

Additional observations from a re-analysis of the deposited data

Results flagged for a closer look

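Of 29 groups of 4 mice with at least 20 UMIs of a gene in a cell type, 4 held a mouse whose gap to the nearest other was large for the range of the group (Dixon's test at its 95% critical value). Chance alone gives about 1 in 20 such groups. The mice of both treatment groups were pooled for this. Scd1 stood at 179 CPM in the plasmablasts of untreated replicate 1, against 270 to 288 CPM in the other mice. Fasn stood at 11.01 CPM (17 UMIs) in the CD4+ T cells of the same mouse, against 7.74 to 8.05 CPM (12 to 17 UMIs). Srebf1 was low in the B cells of treated replicate 2, at 6.44 CPM (21 UMIs) against 9.12 to 9.41 CPM (19 to 32 UMIs). It was high in the CD4+ T cells of treated replicate 1, at 15.6 CPM (33 UMIs) against 12.3 to 12.6 CPM (19 to 22 UMIs).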

How the results depend on the processing

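The absence of a called member for treatment held in every alternative and cell type run, with the lowest adjusted p of a member at 0.902 in B cells, 0.537 in plasmablasts, and 0.866 and 0.593 in CD4+ and CD8+ T cells. The absence of an unadjusted p under 0.05 did not hold in all of them. In edgeR's 1 model over all 4 cell types, 2 of 8 members had one in CD8+ T cells, at a lowest adjusted p of 0.642. Of the log2 fold changes of single members under an alternative, 197 kept their sign for treatment and 28 turned, 186 kept it between cell types and 11 turned, and 61 kept it for the interactions and 5 turned. Counts were low for some members, and Fasn, Srebf1, Scd2 and Fads1 had at most 163 UMIs in any cell type. No paired analysis was possible for treatment because the numbers of treated and untreated mice only name them. Between cell types, the fit with no replicate block gave 4711 calls for B against CD4+ T cells, 1260 for plasmablasts against B cells and 839 for CD8+ against CD4+ T cells, and 5, 0 and 0 members called. The block changed no call of a member, and Fasn in CD8+ against CD4+ T cells turned to 0.00670.

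Leaving out 1 mouse at a time gave the following ranges of the treatment log2 fold change. In B cells they were -0.56 to 0.67 for Fasn, -0.13 to 0.00639 for Acly, -0.46 to 0.011 for Srebf1, -0.16 to 0.063 for Acaca and -0.13 to 0.020 for Srebf2. In CD4+ T cells they were -0.000839 to 0.21 for Acaca, -0.036 to 0.26 for Scd2, -0.11 to 0.096 for Elovl5 and -0.40 to 0.11 for Fasn. In CD8+ T cells they were -0.41 to 0.24 for Acly, -0.087 to 0.30 for Elovl5, -0.72 to 0.27 for Acaca and -0.14 to 0.41 for Srebf1. In plasmablasts they were -0.73 to 0.58 for Acly, -0.16 to 0.085 for Srebf2, -0.37 to 0.085 for Acaca, -0.035 to 0.62 for Scd1 and -0.030 to 0.35 for Elovl5. Between plasmablasts and B cells, Acly ranged from -0.11 to 0.25 and Scd1 from -0.15 to 0.029. Between CD8+ and CD4+ T cells, Fasn ranged from 0.030 to 0.097 and Elovl5 from -0.00416 to 0.15. In the B and CD4+ T cell interaction, Scd1 ranged from -0.022 to 0.28, Fasn from -0.41 to 0.84, Elovl5 from -0.14 to 0.063 and Scd2 from -0.11 to 0.38.

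Over all genes, leaving out 1 mouse gave 10 to 16 treatment calls in B cells (0 with all mice), 3 to 13 in plasmablasts (1 with all mice) and 6 to 16 in CD8+ T cells (2 with all mice). It gave 1 to 4 calls in the B and CD4+ T cell interaction, 1 to 3 in that of CD8+ and CD4+ T cells, 1 to 5 in that of plasmablasts and B cells, and 0 to 1 in that of CD8+ T and B cells. With no filter there were 21 treatment calls in B cells, 13 in plasmablasts and 11 each in CD4+ and CD8+ T cells. DESeq2, 1 model over all cell types and total count scaling gave 0 calls in CD8+ T cells. In plasmablasts they gave 0, 0 and 3. DESeq2 gave 760 calls for plasmablasts against B cells (1400 in edgeR) and 543 for CD8+ against CD4+ T cells (1165 in edgeR). The members called for CD8+ against CD4+ T cells were 0 to 1 when a mouse was left out and 1 under total count scaling. For B against CD4+ T cells, 4 members were called without treated replicate 2 and in DESeq2, and 6 with no filter.

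Total count scaling turned Elovl5 (-0.00153) and Srebf1 (-0.028) for treatment in CD8+ T cells, Scd1 in plasmablasts against B cells (0.025), and Acly (-0.032) and Elovl5 (-0.060) in CD8+ against CD4+ T cells, where it moved the median of all genes to -0.12. It changed the split of calls there from 658 higher and 507 lower to 450 and 975, and in plasmablasts against B cells from 715 and 685 to 1084 and 499. With no filter the latter split was 638 and 807. Thinning moved the share of cells with a UMI of Scd1 to 36.99% of B cells, 37.19% of plasmablasts and 0.20% of CD4+ T cells. Except where a mouse or a filter was left out by construction, the cause was not tested.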
